A study of Rattus norvegicus with 9 samples.

Results

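The proteasome genes of rat hippocampus were followed on 9 expression arrays after exposure to ketone bodies. The members were every probe set of the deposited value table whose single platform gene symbol began with Psma, Psmb, Psmc, Psmd, Psme, Psmf or Psmg and a number. This rule found 60 probe sets for 46 genes, among 31099 probe sets and 14218 singly listed genes in all. It took in subunits, cofactors and 2 genes whose products are named for interacting with a subunit, Psmc3ip and Psme3ip1, which left 58 probe sets and 44 genes of the proteasome and its cofactors. The groups were control in artificial cerebrospinal fluid alone, ketone bodies for 1 h and ketone bodies for 6 h, with 3 arrays each. The labels call the RNA hippocampal neurons in one field and brain, hippocampus in another, and give neither the ketone bodies used, their dose, nor the strain, age or sex of the rats. They do not say whether the 3 arrays of a group came from separate animals or cultures, so p-values measure the spread between these arrays, which may be technical.

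The proteasome is the protease that degrades proteins tagged with ubiquitin. Its barrel-shaped 20S core has outer rings of alpha subunits, which gate the entrance, and inner rings of beta subunits, some of which carry the cutting sites. The 19S cap sits on the core, recognises ubiquitin, removes it and unfolds the substrate with a ring of ATPases. In immune cells, and in many tissues under interferon, the cutting subunits can be replaced by the inducible forms Psmb8, Psmb9 and Psmb10, which favour peptides for antigen presentation. In neurons the proteasome contributes to turnover of synaptic proteins. Ketone bodies are fuels that the liver makes from fat during fasting and that brain cells can burn in place of glucose.

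Levels are given as log2 of the signal plus a pseudocount of 16, after quantile normalization, and changes as differences on that scale, with the standard error (SE) from the fit and n = 3 arrays a group. A probe set was tested where its mean over all arrays reached the 40th percentile, a signal of 21.0, which left 18625 probe sets in the whole table and 54 members for 45 genes. The 6 members below that level were the only probe set of Psmb8, a pair for Psmb5, and 1 each for Psmc4, Psmd11 and Psme1. Changes were called at an adjusted p under 0.05. Signals of different probe sets cannot be set against each other, so genes are compared by their changes only.

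RefSeq promoters on GRCr8 were at hand for 42 of the 46 member genes, and the 250 bases before each start were searched on both strands. Psma7, Psmd12, Psmd14 and Psmd6 were not searched. The core of the interferon response element occurred in 5 of the 40 promoters of subunits and cofactors (12.5%), against 3.41% of all 33469 promoters. The subunit and cofactor genes with it were Psmb10, Psme2, Psmb3, Psma4 and Psmd7. The promoters of Psmb8, Psmb9 and Psme1, which interferon also induces, did not hold these letters in the window searched. TGACNNNGC, a core of the antioxidant response element, occurred in 6 of 40 (15%), against 10.1% of all promoters, and CCAAT in 19 of 40 (47.5%), against 34%. The only overlap between these motifs was in Psmb2, where a CCAAT and a TGACNNNGC shared 1 base. A match is a description of the letters and not of binding. The windows below are shown because Psmb10 and Psme2 are inducible by interferon and Psmb5 is the constitutive cutting subunit that Psmb8 replaces. They run 5′ to 3′ in the direction of the gene, all of which lie on the minus strand, with the match in capitals. The first Psmb10 window is chr19:50743336-50743385 and the second is chr19:50743293-50743329, the Psme2 window is chr15:33052775-33052824 and the Psmb5 window is chr15:32047411-32047459.
Psmb10, match starting 73 bases before the start: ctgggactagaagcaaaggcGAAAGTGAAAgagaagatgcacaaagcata
Psmb10, match starting 17 bases before the start: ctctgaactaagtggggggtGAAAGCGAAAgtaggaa
Psme2, match starting 53 bases before the start: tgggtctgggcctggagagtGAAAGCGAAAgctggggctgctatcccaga
Psmb5, TGACNNNGC match starting 60 bases before the start: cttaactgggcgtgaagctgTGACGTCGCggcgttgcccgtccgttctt

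The first comparison asked how proteasome transcripts stood after 1 h of ketone bodies. No member passed the test, and the background was 6 of 18625 probe sets (0.0322%). The lowest adjusted p of a member, from limma with Benjamini-Hochberg adjustment, was 0.378 for Psmd10. The members' changes nevertheless lay mostly on one side of 0: 46 of 54 were positive, against 55.3% of all tested probe sets. Their median log2 change was 0.14, a 1.10-fold difference, against a median of 0.029 over all tested probe sets, and single members spanned -0.56 to 0.43. In 14 members the 1 h arrays lay wholly above the control arrays (25.9%), against a background of 13%. In 1 member, Psmd11, they lay wholly below (1.85%), against 8.26%. At an unadjusted p under 0.05 there were 10 members (18.5%), against 11.4% of all tested probe sets. Of these 8 were higher, against 6.68%, and 2 lower, against 4.67%. That count rested on single arrays: it was 1 without control replicate 3 and 3 without 1 h replicate 3, while the median stayed between 0.11 and 0.15 with any 1 array left out. Scaling moved both: with arrays centred on their medians the 1 h median was 0.28, against 0.096 for all tested probe sets. The count at an unadjusted p under 0.05 was then 23. The share of all tested probe sets can also change with the setting and is not reported here. Counts under other settings are therefore not set against the 11.4%.

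After 6 h the members' median lay closer to control. None passed the test, against 5 of 18625 probe sets (0.0268%), and none had an unadjusted p under 0.05, against 4.25%. Positive changes were found for 37 of 54 members, against 53.8% of all tested probe sets, with a median of 0.042 for the members and 0.015 for all. The lowest adjusted p of a member by limma was 0.987. In 4 members the 6 h arrays lay wholly above control (7.41%), against 6.05%, and these were Psme1, Psmd5, Psmc1 and Psmb4. In none did they lie wholly below, against 3.15%. The sign of the median rested on 1 array: without 6 h replicate 2 it was -0.015, with 27 members positive, and without 6 h replicate 1 it was 0.087. How many of all tested probe sets were positive without those arrays is not reported here. The comparisons with control use the same 3 control arrays, so their values are given side by side and not as support for each other.

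**Figure D1:**
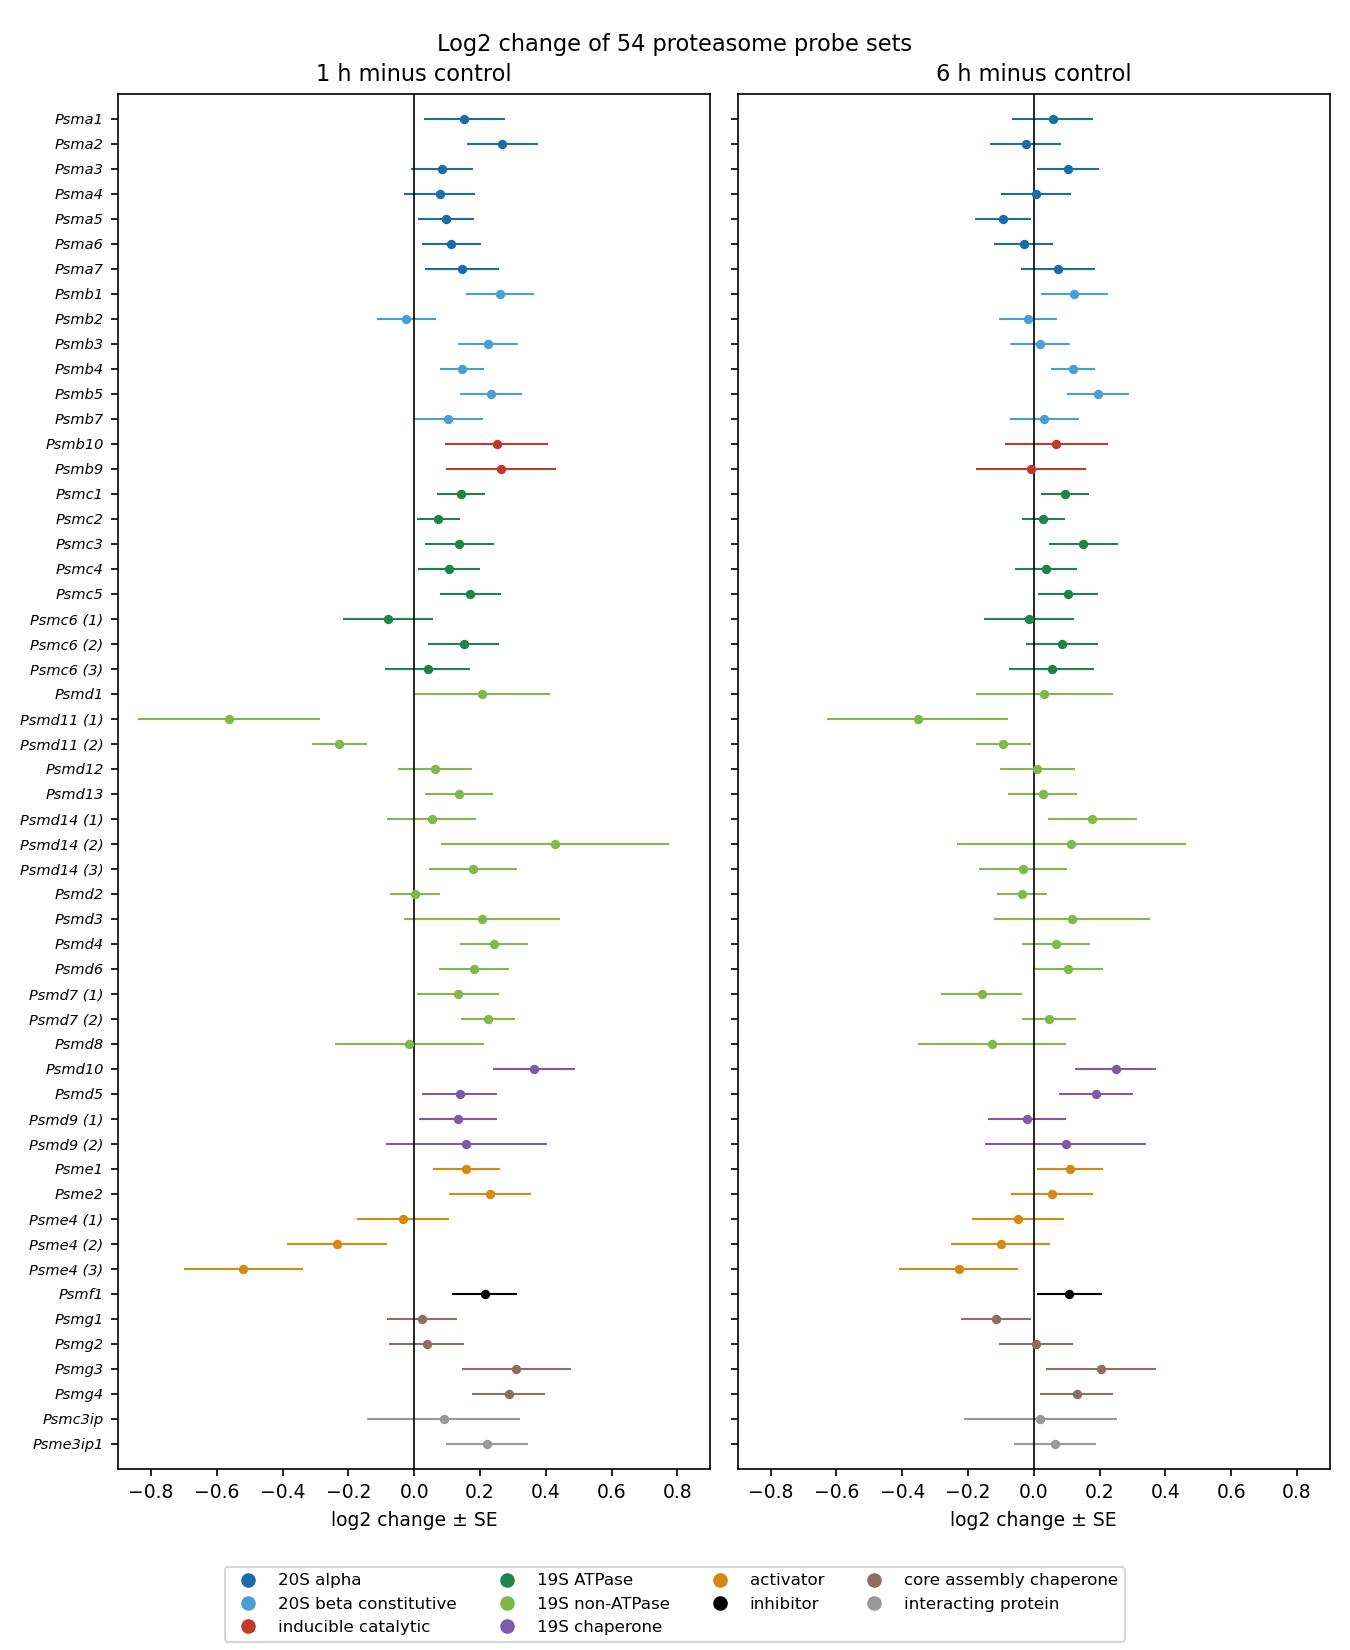
Log2 change ± SE of each of the 54 tested probe sets at 1 h minus control (left) and 6 h minus control (right), coloured by role, with several probe sets of a gene numbered. At 1 h, 46 points lie right of 0 and the points furthest left belong to Psmd11 and Psme4; at 6 h, 37 lie right of 0.

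In the direct comparison of 6 h with 1 h most changes were negative. This comparison uses the 1 h arrays with the opposite sign to 1 h against control, so its direction is not a separate result. Of 54 members, 43 had a negative change (79.6%), against 53% of all tested probe sets, and 11 a positive one, against 47%, with a median of -0.071 for the members and -0.012 for all. None passed the test, and neither did any of the 18625 probe sets (0%); the lowest adjusted p of a member by limma was 0.996. In 3 members, Psma2, Psmd4 and Psmd7, the 6 h arrays lay wholly below the 1 h arrays (5.56%), against 4.04%, and in none wholly above, against 3.55%. At an unadjusted p under 0.05 there were 3 members (5.56%), Psma2, Psmb3 and Psmd7, all lower at 6 h, against 2.72% of all and 1.41% lower. Without 6 h replicate 1 that count was 0 and without 6 h replicate 2 it was 8. Without the 2 arrays of highest beta-actin ratio, described below, 22 members were positive in place of 11.

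With both ketone groups averaged and set against control, 43 of 54 members were positive, against 55.3% of all tested probe sets, and the medians were 0.11 and 0.022. No member passed, against 9 of 18625 (0.0483%), and the lowest adjusted p of a member by limma was 0.471. The 6 ketone arrays lay wholly above the control arrays in 2 members, Psmc1 and Psmb4 (3.7%), against 3.24%. An unadjusted p under 0.05 was found for 4 members (7.41%), against 9.39%. Without control replicate 3 it was found for 0, in a fit whose share over all tested probe sets is not reported here. The F test for any difference among the groups passed no member, against 4 of 18625 (0.0215%), and had 4 members at an unadjusted p under 0.05 (7.41%), against 6.36%.

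**Figure D2:**
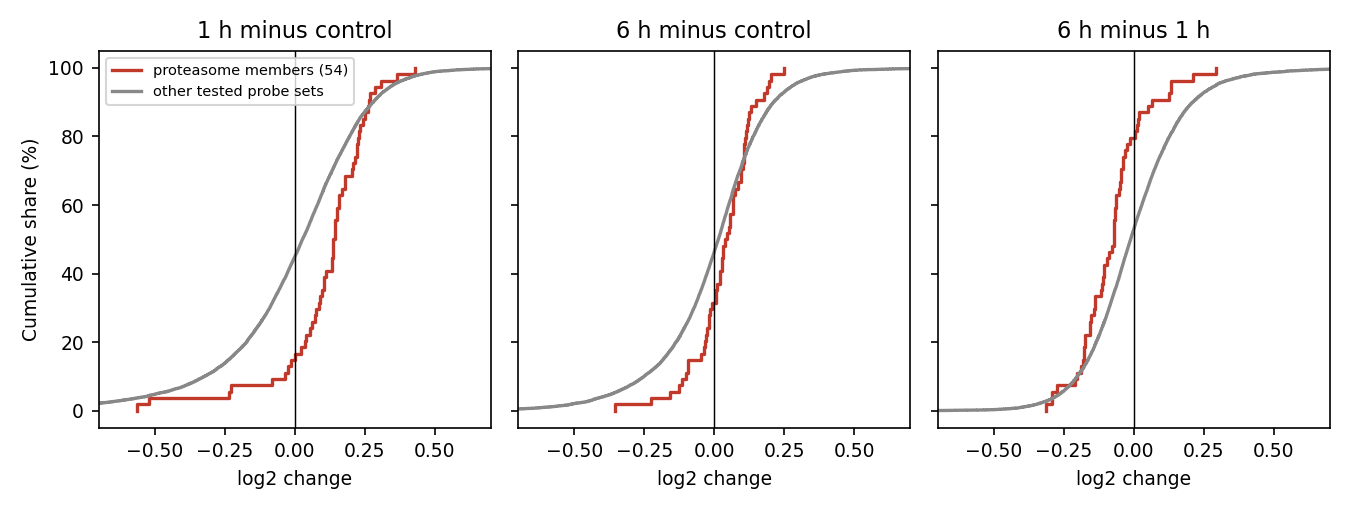
Cumulative share (%) of the 54 members (red) and of the other tested probe sets (grey) by log2 change, for 1 h minus control, 6 h minus control and 6 h minus 1 h. The members' curve is shifted to the right at 1 h, where their median is 0.14, and to the left for 6 h minus 1 h, where it is -0.071.

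The median of the members was also read array by array. The median difference of the 54 members from the control mean was 0.023, 0.030 and -0.032 on the control arrays, 0.13, 0.14 and 0.12 on the 1 h arrays and -0.0049, 0.14 and 0.027 on the 6 h arrays. On this measure all 3 of the 1 h arrays lay above all 3 control arrays, and 1 of the 6 h arrays, replicate 2, reached the 1 h values. The control arrays are part of the mean they were measured from, which draws them towards it, and all ketone arrays share that reference. The members' plain median level was 9.34, 9.13 and 9.30 in control, 9.34, 9.41 and 9.16 at 1 h and 9.16, 9.35 and 9.32 at 6 h. On that level the groups overlapped. The median difference over all tested probe sets stayed between -0.0071 and 0.067 on the 9 arrays. RNA quality also differed between arrays. On the log2 scale, the 3′ over 5′ signal of the beta-actin control, which is higher where RNA is more degraded or less fully copied, was 1.39, 2.16 and 2.02 on the 1 h arrays and 2.58, 1.92 and 1.03 on the 6 h arrays, against 1.37, 1.27 and 1.42 on the control arrays. It averaged 1.85 ± 0.41 at 1 h and 1.84 ± 0.78 at 6 h, against 1.35 ± 0.078 in control (SD, n = 3 arrays each); exact 2-sided permutation tests gave p = 0.2 at 1 h and p = 0.4 at 6 h, where 0.1 is the smallest p possible, and an adjusted p of 1 over the 6 comparisons of actin and Gapdh ratios. The Gapdh ratio averaged 0.13 in control, 0.11 at 1 h and 0.19 at 6 h. With the actin ratio as a covariate the members' median was 0.15 at 1 h and 0.037 at 6 h, with 46 and 38 members positive (share of all tested probe sets not reported here). Without the 2 arrays of highest actin ratio, a choice made after seeing the data, it was 0.12 at 1 h and 0.087 at 6 h.

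**Figure D3:**
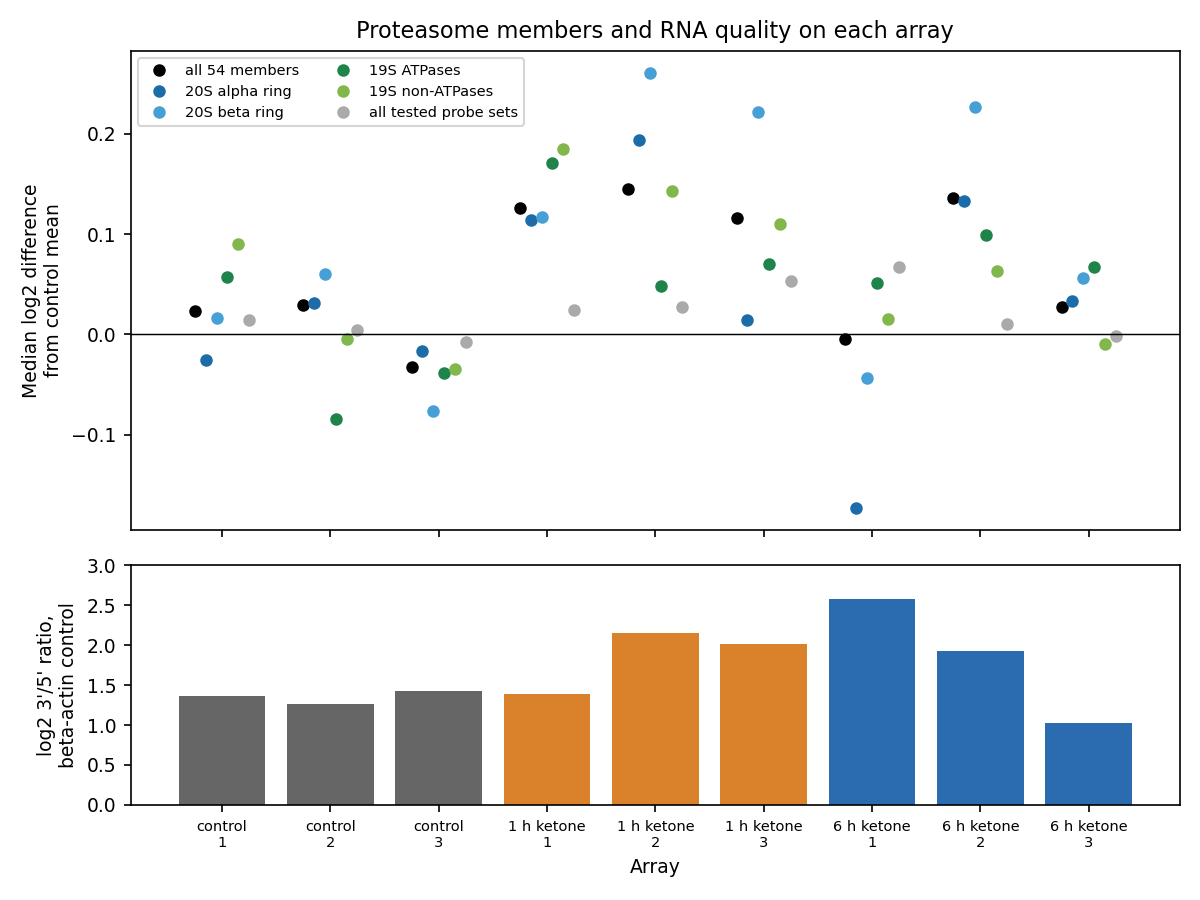
Upper panel, median log2 difference from the control mean on each of the 9 arrays for all 54 members, 4 role groups and all tested probe sets; lower panel, log2 3′/5′ ratio of the beta-actin control. The members' median difference is 0.12 to 0.14 on the 1 h arrays. The 20S alpha median difference is lowest, -0.17, on the 6 h array with an actin ratio of 2.58. It is highest, 0.19, on the 1 h array with a ratio of 2.16.

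Cell type markers were read to check the label of hippocampal neurons. All 7 general neuron markers and all 8 astrocyte markers were above the level for testing, as were 7 oligodendrocyte markers and 11 of 13 microglia markers, so glial transcripts were measured beside neuronal ones. The microglia markers Cd68 and Ptprc were too dim to be tested. All 7 interneuron markers, all 5 endothelial markers and 3 of 5 choroid plexus markers were tested too. The summed signal of the microglia markers was 1756 to 1870 at 1 h and 1658 to 1759 at 6 h, against 1591 to 1737 in control, with 8 of 12 probe sets positive at both times. That of 7 excitatory neuron markers was 5190 to 6290 at 1 h and 5048 to 6126 at 6 h, against 6796 to 7626 in control, and 11 of 12 probe sets were negative at both times. The general neuron markers summed to 23062 to 23824 at 1 h and 22360 to 24840 at 6 h, against 25069 to 25711 in control, with 10 and 11 of 11 probe sets negative. Interneuron markers lay the other way, at 6614 to 6962 at 1 h and 6395 to 6589 at 6 h, against 5870 to 6365 in control, with 5 and 6 of 8 probe sets positive. The endothelial sum was above every control array at 1 h, with 5 of 7 probe sets positive and a median change of 0.022. That median was no higher than the 0.029 of all tested probe sets. The choroid plexus sum was below every control array at 1 h, with 1 of 3 probe sets positive and 2 negative. Sums of linear signal mostly follow the brightest probe sets. The astrocyte and oligodendrocyte sums overlapped control at both times. No marker probe set passed the test. In bulk RNA, fewer cells of a type and less RNA per cell cannot be told apart, and the part of cell makeup in the proteasome members' values was not tested.

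The alpha subunits form the gate of the core, and all 7 had a tested probe set. At 1 h all 7 changes were positive, between 0.077 and 0.27 with a median of 0.11, and at 6 h 4 of 7 were positive with a median of 0.0061. Psma2 had the smallest F-test p of the ring: it measured 10.03, 10.16 and 10.05 in control, 10.22, 10.48 and 10.34 at 1 h and 9.84, 10.21 and 10.11 at 6 h. The 1 h arrays of Psma2 did not overlap either other group, with changes of 0.27 ± 0.11 against control (SE, limma adjusted p = 0.409) and -0.29 ± 0.11 for 6 h against 1 h (adjusted p = 0.996). Psma5 stood at 10.13, 10.02 and 10.09 in control, 10.19, 10.26 and 10.07 at 1 h and 9.89, 10.11 and 9.96 at 6 h. Its groups overlapped, and its change for 6 h against 1 h was -0.19 ± 0.086 (SE, limma adjusted p = 0.996). In Psma6 and Psma7 the 1 h arrays also lay wholly above control, with changes of 0.11 ± 0.090 and 0.14 ± 0.11 (SE). The ring's values turned with single arrays: its median difference from the control mean was 0.11, 0.19 and 0.014 on the 1 h arrays and -0.17, 0.13 and 0.034 on the 6 h arrays.

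Beta subunits make up the inner rings, in which Psmb5, Psmb6 and Psmb7 carry the constitutive cutting sites. Of the 6 constitutive beta genes tested, 5 had a positive change at 1 h and 5 at 6 h, with medians of 0.18 and 0.076. Psmb5, the chymotrypsin-like subunit, measured 10.70, 10.85 and 10.58 in control, 10.82, 11.04 and 10.97 at 1 h and 10.88, 11.03 and 10.80 at 6 h. One control array of Psmb5 lay among the ketone arrays, so neither ketone group was clear of control, and its changes were 0.23 ± 0.094 at 1 h (SE, limma adjusted p = 0.407) and 0.20 ± 0.094 at 6 h (adjusted p = 0.987). Psmb7, the trypsin-like subunit, had 10.76, 10.95 and 10.90 in control, 10.88, 11.14 and 10.89 at 1 h and 10.76, 11.10 and 10.83 at 6 h. All 3 groups of Psmb7 overlapped, with changes of 0.10 ± 0.11 and 0.032 ± 0.11 (SE) at 1 h and 6 h. The 1 h change of Psmb7 was 0.020 without 1 h replicate 2 and 0.30 with arrays centred on their medians. Psmb6 was listed only together with Psmb6l1 on 1 probe set and is described with the probe sets of several genes.

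Among the beta subunits without a cutting site of their own, Psmb4 and Psmb3 stood out by array. Psmb4 measured 11.22, 11.18 and 11.22 in control, 11.33, 11.27 and 11.46 at 1 h and 11.32, 11.40 and 11.27 at 6 h. All 6 ketone arrays of Psmb4 lay above the 3 control arrays, by 0.14 ± 0.067 at 1 h and 0.12 ± 0.067 at 6 h (SE, limma adjusted p = 0.448 and 0.987). Psmb3 measured 10.10, 10.13 and 10.03 in control, 10.28, 10.34 and 10.31 at 1 h and 10.01, 10.30 and 10.00 at 6 h. The 1 h arrays of Psmb3 lay above control by 0.22 ± 0.092 (SE, limma adjusted p = 0.415), while 2 of the 6 h arrays lay below every control array. Psmb1 also had all 1 h arrays above control, with a change of 0.26 ± 0.10 (SE, limma adjusted p = 0.399), and Psmb2 was the member of the ring with a negative change at both times, -0.024 and -0.018.

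The inducible cutting subunits replace Psmb5, Psmb6 and Psmb7 as Psmb8, Psmb9 and Psmb10 in the immunoproteasome. Psmb8 stayed below the level for testing, at 5.18, 5.05 and 5.23 in control, 5.35, 5.45 and 5.13 at 1 h and 5.50, 4.35 and 5.23 at 6 h. Psmb9 was barely above it, with 5.60, 5.72 and 5.41 in control, 5.79, 6.02 and 5.72 at 1 h and 5.51, 5.84 and 5.36 at 6 h. The Psmb9 groups overlapped, at 1 h only at their edges, and the changes were 0.27 ± 0.17 at 1 h (SE, limma adjusted p = 0.549) and -0.0086 ± 0.17 at 6 h (adjusted p = 0.998). Psmb10 measured 7.70, 7.82 and 7.29 in control, 7.75, 7.99 and 7.83 at 1 h and 7.50, 7.85 and 7.66 at 6 h. One low control array widened the Psmb10 spread, and its changes were 0.25 ± 0.16 at 1 h (SE, limma adjusted p = 0.547) and 0.069 ± 0.16 at 6 h (adjusted p = 0.991). Without control replicate 3 the 1 h change of Psmb10 was 0.093, and over all alternatives it ran up to 0.36.

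**Figure D4:**
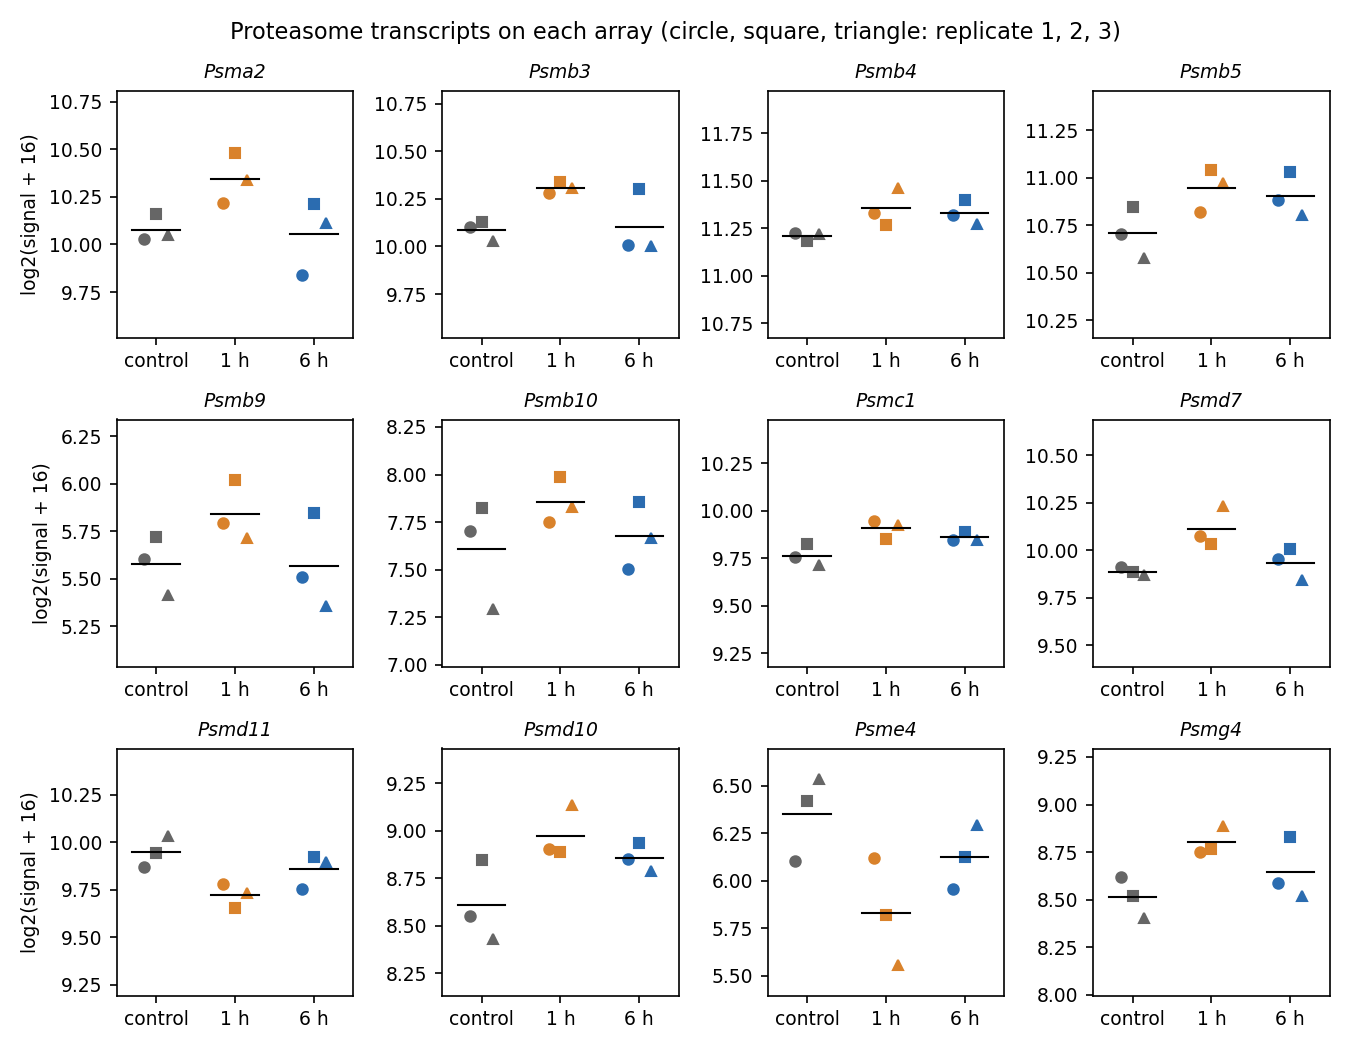
Log2(signal + 16) of 12 members on each array, with the group mean as a line and the replicate number as the symbol; each panel spans the same range. The 1 h arrays of Psma2, Psmb3, Psmd7, Psmd10 and Psmg4 lie above all control arrays, those of Psmd11 lie below, and all 6 ketone arrays of Psmb4 and Psmc1 lie above control. The 12 are a selection and do not stand for all members. Of 54 members, 14 had 1 h arrays wholly above control (25.9%), against 13% of all tested probe sets, and 1 wholly below (1.85%), against 8.26%.

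The 19S ATPases, Psmc1 to Psmc6, form the ring that unfolds substrates and opens the core. Of their 8 tested probe sets 7 were positive at 1 h and 7 at 6 h, with medians of 0.12 and 0.070. Psmc1 measured 9.75, 9.82 and 9.71 in control, 9.94, 9.85 and 9.93 at 1 h and 9.85, 9.89 and 9.84 at 6 h. All ketone arrays of Psmc1 lay above control, by 0.14 ± 0.073 at 1 h and 0.096 ± 0.073 at 6 h (SE, limma adjusted p = 0.479 and 0.987). Psmc3 measured 10.07, 9.80 and 9.84 in control, 10.19, 9.96 and 9.96 at 1 h and 10.17, 9.98 and 10.00 at 6 h. One Psmc3 control array stood among the ketone arrays, and the changes were 0.14 ± 0.10 and 0.15 ± 0.10 (SE). Psmc6 had 3 tested probe sets that disagreed in sign at 1 h, with changes of -0.080 ± 0.14, 0.15 ± 0.11 and 0.041 ± 0.13 (SE). At 6 h the Psmc6 changes were -0.014, 0.086 and 0.054, all within their SE. The first Psmc6 probe set read 9.46, 9.12 and 9.56 in control, 9.45, 9.38 and 9.06 at 1 h and 9.42, 9.31 and 9.37 at 6 h. The second read 8.16, 7.99 and 8.20 in control, 8.28, 8.32 and 8.20 at 1 h and 8.06, 8.28 and 8.26 at 6 h. The third Psmc6 probe set followed the first, at 9.47, 9.14 and 9.59 in control, 9.60, 9.43 and 9.28 at 1 h and 9.39, 9.43 and 9.54 at 6 h. Control replicate 2 was low and control replicate 3 high on all 3, so no group stood clear of another. The sign of the first at 1 h turned with the scaling, to 0.047 when arrays were centred on their medians.

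The non-ATPase subunits of the cap include a ubiquitin receptor, Psmd4, the deubiquitinase Psmd14 and the scaffold subunits Psmd1 and Psmd2. Of 15 tested probe sets for 11 genes, 12 were positive at 1 h and 9 at 6 h, with medians of 0.14 and 0.027. Psmd7, the partner of Psmd14, had 2 probe sets. The brighter read 9.91, 9.88 and 9.87 in control, 10.07, 10.03 and 10.23 at 1 h and 9.96, 10.01 and 9.84 at 6 h. Its 1 h arrays lay clear of both other groups, by 0.23 ± 0.082 against control (SE, limma adjusted p = 0.391) and -0.18 ± 0.082 for 6 h against 1 h (adjusted p = 0.996). The other Psmd7 probe set read 8.65, 8.71 and 8.63 in control, 8.89, 8.69 and 8.81 at 1 h and 8.24, 8.56 and 8.70 at 6 h. It too was highest at 1 h, but the groups overlapped, with changes of 0.13 ± 0.12 at 1 h, -0.16 ± 0.12 at 6 h and -0.29 ± 0.12 for 6 h against 1 h (SE). The 2 Psmd7 probe sets thus differed in sign at 6 h against control.

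Psmd11, a scaffold subunit, had negative changes on both of its tested probe sets at both times. Its second probe set read 9.87, 9.95 and 10.03 in control, 9.78, 9.65 and 9.73 at 1 h and 9.75, 9.92 and 9.90 at 6 h. All 1 h arrays lay below all control arrays, with a change of -0.23 ± 0.084 (SE, limma adjusted p = 0.391), while 2 of 3 arrays at 6 h fell within the control range. The first Psmd11 probe set pointed the same way, with a change of -0.56 ± 0.28 at 1 h (SE, limma adjusted p = 0.467) and a spread in control from 9.57 to 10.36. Its size moved with the scaling: centred on array medians, the 1 h change of the second Psmd11 probe set was -0.080.

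Psmd4, which binds ubiquitin chains, read 9.19, 9.11 and 8.84 in control, 9.32, 9.32 and 9.24 at 1 h and 9.08, 9.18 and 9.09 at 6 h; it lies outside the rule for naming and is given since its 1 h arrays were clear of both other groups. The Psmd4 changes were 0.24 ± 0.10 against control and -0.18 ± 0.10 for 6 h against 1 h (SE, limma adjusted p = 0.422 and 0.996). Psmd14 had 3 tested probe sets, whose changes at 1 h were 0.053 ± 0.14, 0.43 ± 0.35 and 0.18 ± 0.13 (SE). At 6 h they were 0.18, 0.11 and -0.032, which differ in sign. The 1 h change of the second Psmd14 probe set was 0.044 without 1 h replicate 2 and 0.74 without 1 h replicate 3. The second Psmd14 probe set was dim and spread most, at 5.77, 5.91 and 6.62 in control, 6.38, 7.30 and 5.91 at 1 h and 6.12, 6.60 and 5.92 at 6 h. The first read 10.11, 9.75 and 10.04 in control, 10.12, 10.16 and 9.78 at 1 h and 9.95, 10.26 and 10.22 at 6 h, with all groups overlapping. The third Psmd14 probe set read 8.93, 9.06 and 8.99 in control, 9.10, 9.31 and 9.10 at 1 h and 8.66, 9.17 and 9.04 at 6 h. Only the third had its 1 h arrays clear of control. The scaffold gene Psmd2 showed the smallest change of the members at 1 h, 0.0022 ± 0.076 (SE).

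The base chaperones Psmd5, Psmd9 and Psmd10 bind the ATPases while the cap is assembled and are absent from the finished particle. All 4 of their probe sets were positive at 1 h and 3 at 6 h, with medians of 0.15 and 0.14. Psmd10, also known as gankyrin, read 8.55, 8.84 and 8.43 in control, 8.90, 8.89 and 9.13 at 1 h and 8.85, 8.93 and 8.79 at 6 h. Its 1 h arrays lay above all control arrays, and at 6 h 1 array fell under the highest control. The Psmd10 changes were 0.37 ± 0.12 at 1 h and 0.25 ± 0.12 at 6 h (SE, limma adjusted p = 0.378 and 0.987), and 0.31 ± 0.11 for both groups together (adjusted p = 0.471). Psmd5 read 8.32, 8.30 and 8.34 in control, 8.43, 8.29 and 8.66 at 1 h and 8.48, 8.63 and 8.42 at 6 h. The 6 h arrays of Psmd5 lay clear of control by 0.19 ± 0.11 (SE, limma adjusted p = 0.987), and the 1 h arrays overlapped it. Psmd9 had 2 probe sets, with 1 h changes of 0.13 ± 0.12 and 0.16 ± 0.24 (SE) and 6 h changes of -0.020 and 0.097. The brighter Psmd9 probe set read 7.66, 7.64 and 7.41 in control, 7.77, 7.60 and 7.74 at 1 h and 7.44, 7.66 and 7.56 at 6 h. The other read 5.57, 4.71 and 5.58 in control, 5.31, 5.24 and 5.79 at 1 h and 5.40, 5.44 and 5.31 at 6 h, and the sign of its 1 h change turned to -0.13 without control replicate 2 and to -0.016 without 1 h replicate 3.

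Activators open the core without the 19S cap. Psme1 and Psme2 form the interferon-inducible activator PA28, and Psme4 is the large activator PA200. Of 5 tested probe sets 2 were positive at 1 h and 2 at 6 h, with medians of -0.035 and -0.048. The positive pair were Psme1 and Psme2. Psme1 read 8.61, 8.59 and 8.56 in control, 8.79, 8.87 and 8.57 at 1 h and 8.70, 8.75 and 8.64 at 6 h. The 6 h arrays of Psme1 were clear of control, with a change of 0.11 ± 0.10 (SE, limma adjusted p = 0.987), and the 1 h change was 0.16 ± 0.10 (adjusted p = 0.55). Psme2 read 7.57, 7.73 and 7.59 in control, 7.73, 7.91 and 7.95 at 1 h and 7.51, 7.88 and 7.68 at 6 h, with changes of 0.23 ± 0.12 and 0.056 ± 0.12 (SE). The Psme2 groups overlapped at both times, at 1 h by a tie in the second decimal.

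Psme4 had 3 tested probe sets, all with negative changes at both times. The one with the smallest p read 6.10, 6.42 and 6.54 in control, 6.12, 5.82 and 5.56 at 1 h and 5.96, 6.12 and 6.29 at 6 h. One control array of Psme4 lay among the 1 h arrays, and the changes were -0.52 ± 0.18 at 1 h (SE, limma adjusted p = 0.381) and -0.23 ± 0.18 at 6 h (adjusted p = 0.987). Its other probe sets gave -0.035 ± 0.14 and -0.23 ± 0.15 at 1 h (SE). Together with Psmd11, Psme4 made up the members with an unadjusted p under 0.05 and a lower value at 1 h. The inhibitor Psmf1, also called PI31, read 8.55, 8.58 and 8.53 in control, 8.87, 8.67 and 8.76 at 1 h and 8.55, 8.64 and 8.79 at 6 h. The 1 h arrays of Psmf1 lay above control by 0.21 ± 0.099 (SE, limma adjusted p = 0.448), and the 6 h change was 0.11.

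The core assembly chaperones Psmg1 to Psmg4 guide formation of the alpha ring. All 4 had positive changes at 1 h and 3 at 6 h, with medians of 0.16 and 0.069. Psmg4 read 8.62, 8.52 and 8.40 in control, 8.75, 8.77 and 8.89 at 1 h and 8.59, 8.83 and 8.52 at 6 h. Its 1 h arrays stood clear of control, by 0.29 ± 0.11 (SE, limma adjusted p = 0.397), and the 6 h change was 0.13. Psmg3 also had its 1 h arrays above control, with a change of 0.31 ± 0.17 (SE, limma adjusted p = 0.492), while the 1 h changes of Psmg1 and Psmg2 were 0.023 and 0.037. Of the interacting proteins, Psme3ip1 read 8.24, 8.46 and 8.13 in control, 8.38, 8.60 and 8.51 at 1 h and 8.26, 8.52 and 8.25 at 6 h. Its groups overlapped, and its 1 h change was 0.22 ± 0.12 (SE, limma adjusted p = 0.504).

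A further 6 probe sets, 5 of them tested, are listed with several genes of which 1 matches the rule, and they were kept out of all counts. The one listed with Psmb6l1 and Psmb6, the gene of the caspase-like cutting subunit, read 9.59, 9.43 and 9.14 in control, 9.79, 10.04 and 9.84 at 1 h and 9.49, 9.77 and 9.33 at 6 h. Its 1 h arrays were clear of both other groups, by 0.50 ± 0.14 against control (SE, limma adjusted p = 0.334) and -0.36 ± 0.14 for 6 h against 1 h (adjusted p = 0.996). The one listed with Psma3l and Psma3 had changes of 0.22 ± 0.12 at 1 h and 0.24 ± 0.12 at 6 h (SE, adjusted p = 0.492 and 0.987), and the 3 tested ones that include Psme3 had changes of 0.038 to 0.054 at 1 h. RefSeq names pseudogenes for 17 of the 46 member genes, whose transcripts could share probes, so the gene behind those signals is uncertain.

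The pathway around the proteasome was read from a list of 38 genes (ubiquitin activation and shuttling, cap-associated enzymes, proteasome transcription factors, antigen processing, and parts of the proteasome whose symbols the rule does not match: the cap subunits Adrm1 and Sem1 and the core assembly factor Pomp), of which 30 genes and 49 probe sets were tested. No probe set of the list passed in any comparison. At 1 h 19 were positive and 30 negative, and at 6 h 19 and 30, with medians of -0.052 and -0.024. At 1 h Adrm1, Sem1 and Pomp, named after their values were seen, had changes of 0.14, 0.31 and 0.045. The smallest p-values of the list belonged to B2m, the light chain of the antigen-presenting complex, and Irf1, an interferon-responsive transcription factor. Irf1 read 6.99, 6.87 and 6.78 in control, 7.30, 7.19 and 7.52 at 1 h and 7.69, 7.26 and 7.56 at 6 h. All ketone arrays of Irf1 lay above control, by 0.45 ± 0.14 at 1 h and 0.62 ± 0.14 at 6 h (SE, limma adjusted p = 0.36 and 0.491). One B2m probe set read 9.20, 9.09 and 9.18 in control, 9.56, 9.62 and 9.76 at 1 h and 9.67, 9.71 and 9.30 at 6 h. Its ketone arrays lay above control by 0.49 ± 0.12 and 0.41 ± 0.12 (SE, limma adjusted p = 0.299 and 0.904), while the brighter B2m probe set had changes of 0.044 and 0.099. For 6 h against 1 h the smallest p-values belonged to Ubqln2 and Rad23b, both ubiquitin shuttle proteins, with changes of 0.21 ± 0.071 and -0.65 ± 0.25 (SE, limma adjusted p = 0.996 each). The Rad23b value came from its dimmer probe set, and the brighter one had a change of -0.010.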

How the data were processed

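RNA from 9 arrays was analysed, 3 a group. The deposited table holds linear signal intensity as the authors gave it. Its software, chip description and filters were not given in the sources used here. The mean without the lowest and highest 2% was 150.05 on every array. Array medians of log2(signal + 16) spanned 0.206, over the limit of 0.2, so quantile normalization followed. Probe sets under the 40th percentile of the mean (log2 5.21) and 57 control probe sets were left out. One limma 3.58.1 fit in R 4.3.3 used 1 coefficient per group, 6 residual degrees of freedom, an intensity trend and Benjamini-Hochberg adjustment over 18625 probe sets. The fit was tested on simulated data, in 5 runs with changes added to the 1 h arrays. It called 22%, 71.4% and 96.8% of added log2 changes of size 0.5, 1 and 2, and 6.57% of its calls were false. Small changes can therefore go uncalled with these arrays. The simulated noise was drawn separately for each probe set and array, so it held no differences shared by a whole array. Its 6.57% is thus not the false-call rate of the real arrays. The smallest size simulated, 0.5, is above the members' 1 h median of 0.14. Correlations between arrays were 0.949 to 0.987 within groups and 0.945 to 0.988 between groups, and the number of arrays limits precision.

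Gene names came from the platform annotation; all 60 member symbols are RefSeq symbols. Members and lists were chosen with earlier results of these data known, so nothing here is independent support. Values on every array are given for the 5 members with the smallest p per comparison, the smallest F-test p per role, the inducible genes and their counterparts, Psmd7, Psmd10, and genes whose probe sets differ in sign; others named were chosen after their values were seen. After subtraction of each group's mean, same-numbered arrays of different groups correlated between -0.36 and 0.539 (3 of 9 pairs over 0.1). Arrays with different numbers correlated between -0.435 and 0.529 (7 pairs over 0.1), so the numbers were not taken as pairs. Alternatives covered scaling, pseudocount, filter, variance model, array weights, the 3′/5′ ratio as a covariate, the arrays fitted, 1 probe set per gene, the block and each array left out. Figures used Python 3.11.15 and matplotlib 3.10.9.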

Additional observations from a re-analysis of the deposited data

How the results depend on the processing

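Under 22 alternatives (21 for both ketone groups together, where fitting only the groups compared gives no separate value), no member passed in any comparison; the lowest adjusted p by limma over them was 0.0978 at 1 h, 0.572 at 6 h, 0.2 for 6 h against 1 h and 0.301 for both groups together. The members' median at 1 h stayed positive: 0.18 on the values as deposited, 0.28 centred on array medians, and 0.11 to 0.15 leaving out 1 array, with 42 to 47 positive. Centring also gave medians of 0.13 at 6 h, -0.12 for 6 h against 1 h, where 7 members were positive, and 0.22 for both groups together; the median of all probe sets was then 0.096 at 1 h and 0.071 at 6 h. At 6 h the median ran from -0.015 without 6 h replicate 2, a reversal, to 0.087 without 6 h replicate 1, with 27 to 41 positive, and it was 0.087 without the 2 arrays of highest actin ratio. For 6 h against 1 h it ran from -0.10 to -0.040 leaving out 1 array, with 11 to 16 positive, and without those 2 arrays 22 members were positive. For both groups together it ran from 0.071 (without 6 h replicate 2) to 0.12, with 41 to 46 positive, and was 0.072 without control replicate 3. The cause was not tested. Shares of all tested probe sets with a positive change are not reported here for these settings, so the positive counts have no background.

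Members at an unadjusted p under 0.05 at 1 h numbered 1 without control replicate 3, 3 without 1 h replicate 3, 5 without the intensity trend, 6 with the 3′/5′ ratio as covariate, 17 as deposited and 23 centred, against 10; for both groups together 0 to 19, against 4. For 6 h against 1 h they numbered 0 without 6 h replicate 1 and 8 without 6 h replicate 2, against 3. The count after each "against" is that of the main fit. Shares over all tested probe sets under each setting are not reported here. A count that moves therefore cannot be read as a change particular to the members.

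With the replicate number as a block, which the pairing check does not bear out, no member passed; the medians were 0.14, 0.042, -0.071 and 0.11, with 46, 37, 11 and 43 positive, and members at an unadjusted p under 0.05 numbered 13, 1, 2 and 5.

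Of 773 values for 36 named results, 766 kept their direction and 7 reversed. None of these results passed under any setting (lowest adjusted p by limma 0.199). The alternatives reused the same arrays, and many of these results were named for their small p-values, so the count is no separate support. The first Psmc6 probe set at 1 h was 0.047 centred, 0.012 without control replicate 3 and 0.039 without 1 h replicate 3, in a range from -0.21 to 0.039 leaving out 1 array. The third for both groups together was -0.082 without control replicate 2 and up to 0.14 without another array. The third Psmd14 probe set for 6 h against 1 h was 0.0075 without the 2 arrays of highest actin ratio. The dimmer Psmd9 probe set at 1 h was -0.13 without control replicate 2 and -0.016 without 1 h replicate 3, in a range up to 0.30 without control replicate 3.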
